A study of Mus musculus with 6 samples.

Results

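Pdgfra, Pdgfrb, Acta2, Tagln, Myh11, Dcn, Tcf21 and Fgf10 are 8 genes of lung fibroblasts and smooth muscle, out of 49943 genes that the RefSeq table places on the autosomes and sex chromosomes, 21887 of them protein-coding. They were chosen by name as markers of these cells, and the data on them are the peaks of captured methylated DNA that overlap each gene's mm10 span plus or minus 5 kb, called its window below. Within a window, peaks were assigned to the gene ends (within 1000 bp of either end of the span), to the gene body between them, or to the flanks out to 5 kb.

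Fibroblasts and smooth muscle form the mesenchyme of the lung, which carries the alveolar walls, airways and vessels. The platelet-derived growth factor receptors Pdgfra and Pdgfrb mark fibroblasts and pericytes, Tcf21 is a transcription factor of alveolar fibroblasts that store lipid, and Fgf10 is the mesenchymal growth factor that drives branching of the lung epithelium. Acta2, Tagln and Myh11 encode contractile proteins of smooth muscle, which serum response factor switches on through a DNA element called the CArG box. Dcn encodes decorin, a collagen-binding proteoglycan of the fibroblast matrix. DNA methylation in mammals sits mostly on the dinucleotide CG, and a methylated gene start is commonly linked to a silent gene, whereas methylation inside a gene body is common in active genes.

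In MBD-seq, DNA fragments that bind a protein domain with affinity for methylated CG are enriched before sequencing, and this was done on genomic DNA of whole lung for 6 libraries, 3 of transgenic and 3 of wild-type mice, from animals 12 to 16 months old that the series text gives as biological replicates. The transgene expressed DNMT3B4-del, a deletion variant of the de novo methyltransferase DNMT3B, under the promoter of the surfactant protein C gene (SPC), which is active in alveolar type 2 cells of the epithelium. Its genotype reads SPC-DNMTdelta3B/DG for transgenic replicates 1 and 3 and SPC-DNMTdeltaB/DG for replicate 2, and the wild-type mice carried no transgene. The labels name 4 founder lines that passed the transgene on, but neither the line nor the sex of the animals used. The comparison asks where the methylation of lung DNA differs between these genotypes.

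No RNA was measured, so the cell type of these 8 genes could not be checked in these lungs. Whole lung holds many cell types, and a change of methylation in 1 type cannot be told apart from a change in the share of cells that carry it. Read depth was unknown. The lists held 120349, 116352 and 78952 peaks in transgenic replicates 1, 2 and 3 and 60131, 111211 and 30640 in wild-type replicates 1, 2 and 3, so that wild-type replicate 3 stood apart with the shortest list. Results are therefore set beside the same measure over all protein-coding genes of the same list.

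Dcn was the only one of the 8 genes with a peak at a gene end, and it had one in every transgenic and in no wild-type lung. These Dcn peaks also lay within the gene span, close to its upper end. The receptor genes Pdgfra and Pdgfrb and the contractile genes carried their peaks in the gene body or in the flanks, in both genotypes. Pdgfra and Pdgfrb were the 2 genes with a peak in the window in all 6 lists, which 33.3% of protein-coding genes had. Fgf10 had no peak in any library, and Tcf21 had none within the gene. In no member did the authors' deposited table of 407 differential regions list a region inside the window.

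Across the 8 windows the lists held 33, 26 and 15 peaks in transgenic replicates 1, 2 and 3 and 10, 30 and 2 peaks in wild-type replicates 1, 2 and 3. The groups overlapped, since wild-type replicate 2 lay above transgenic replicates 2 and 3. The means were 24.7 ± 9.07 and 14 ± 14.4 peaks (SD, n = 3 each), a difference of 10.7, which rose to 18.7 if wild-type replicate 2 was left out and came to 4.67 if wild-type replicate 3 was. Gene bodies held 27, 20 and 12 of these peaks in transgenic and 9, 24 and 2 in wild-type replicates 1, 2 and 3, and flanks held 5, 5 and 2 against 1, 6 and 0. At gene ends there was 1 peak in each transgenic list and 0 in each wild-type list, all of them at Dcn.

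**Figure D1:**
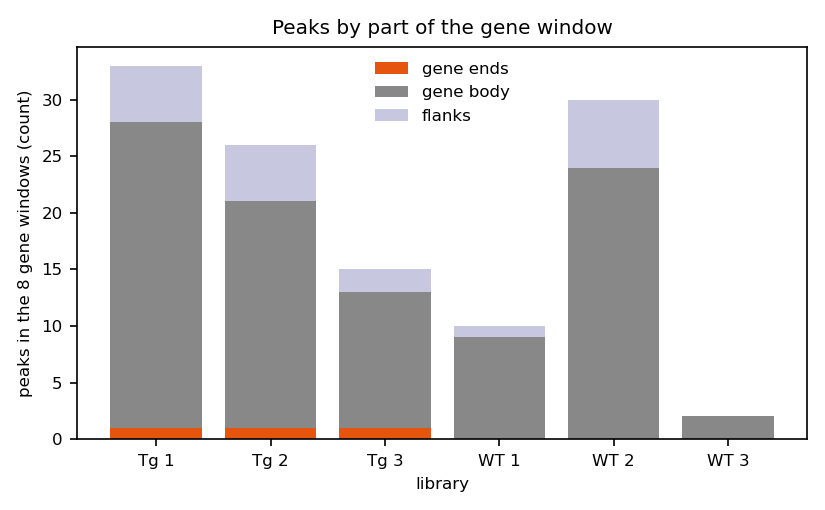
Number of peaks in the 8 gene windows (vertical axis, count) in each library (horizontal axis; Tg, transgenic; WT, wild type), stacked by gene ends, gene body and flanks. Body peaks make up most of every bar, from 27 of 33 in transgenic replicate 1 to 2 of 2 in wild-type replicate 3, and the single gene-end peak appears in the transgenic libraries.

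Peaks covered 3.69%, 2.55% and 1.40% of the summed windows in transgenic replicates 1, 2 and 3 and 0.879%, 3.11% and 0.0856% in wild-type replicates 1, 2 and 3. The same measure over all protein-coding gene windows gave 3.05%, 2.54% and 1.57% and 1.15%, 2.59% and 0.275%. The ratio of the 8 genes to all protein-coding genes was 1.21, 1.00 and 0.888 for transgenic replicates 1, 2 and 3 and 0.762, 1.20 and 0.311 for the wild-type ones, and the groups overlapped. The mean ratios were 1.03 ± 0.162 and 0.758 ± 0.446 (SD, n = 3 each), and without wild-type replicate 3 their difference shrank from 0.275 to 0.0517. The covered share of a window was on average higher in transgenic lungs for 7 of the 8 genes, with a median difference of 0.845 percentage points. Over all 21887 protein-coding genes it was higher for 75.0%, with a median difference of 0.870 points, so the 8 genes lay near the background.

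**Figure D2:**
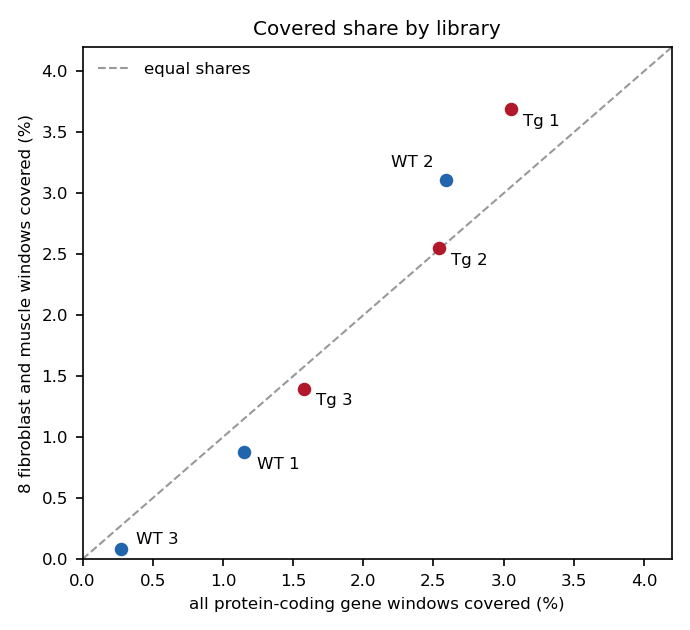
Percent of the 8 gene windows under a peak (vertical axis) against percent of all protein-coding gene windows under a peak (horizontal axis), 1 point per library, with a dashed line where both shares are equal. Transgenic replicate 1 and wild-type replicate 2 lie above the line, wild-type replicates 1 and 3 and transgenic replicate 3 below it, and transgenic replicate 2 on it.

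In 5 of the 6 lists, all but that of wild-type replicate 3, most peaks of these genes scored below the list's median. Peak scores are the peak caller's own values as the authors deposited them. They start at 50 and are not scaled between libraries. Above it lay 11 of 33, 9 of 26 and 4 of 15 peaks of transgenic replicates 1, 2 and 3 and 0 of 10, 9 of 30 and 2 of 2 peaks of wild-type replicates 1, 2 and 3. Their median width was 385, 323 and 341 bp against list medians of 460, 399 and 385 bp in transgenic replicates 1, 2 and 3. In wild-type replicates 1, 2 and 3 it was 346.5, 348.5 and 173.5 bp against 376, 423 and 197 bp.

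Merging the 6 lists gave 42 regions in the 8 windows, of which 35 lay in gene bodies, 6 in flanks and 1 at a gene end. None was found in all 6 lists, against 8.12% of the 93289 merged regions in protein-coding windows. In 5 lists there were 6 regions, and the missing list was wild-type replicate 3 for 5 of them and wild-type replicate 1 for the other. In a single list there were 11 regions (26.2%), against 29.6% in the background, of which wild-type replicate 2 held 5, transgenic replicate 1 held 4 and transgenic replicate 2 held 2. A peak in all 3 transgenic lists and no wild-type list was found at 2 of the 42 regions, in Dcn and in Pdgfra, against a background of 1.99%. The opposite was found at 0 regions, with a background of 0.0161%.

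**Figure D3:**
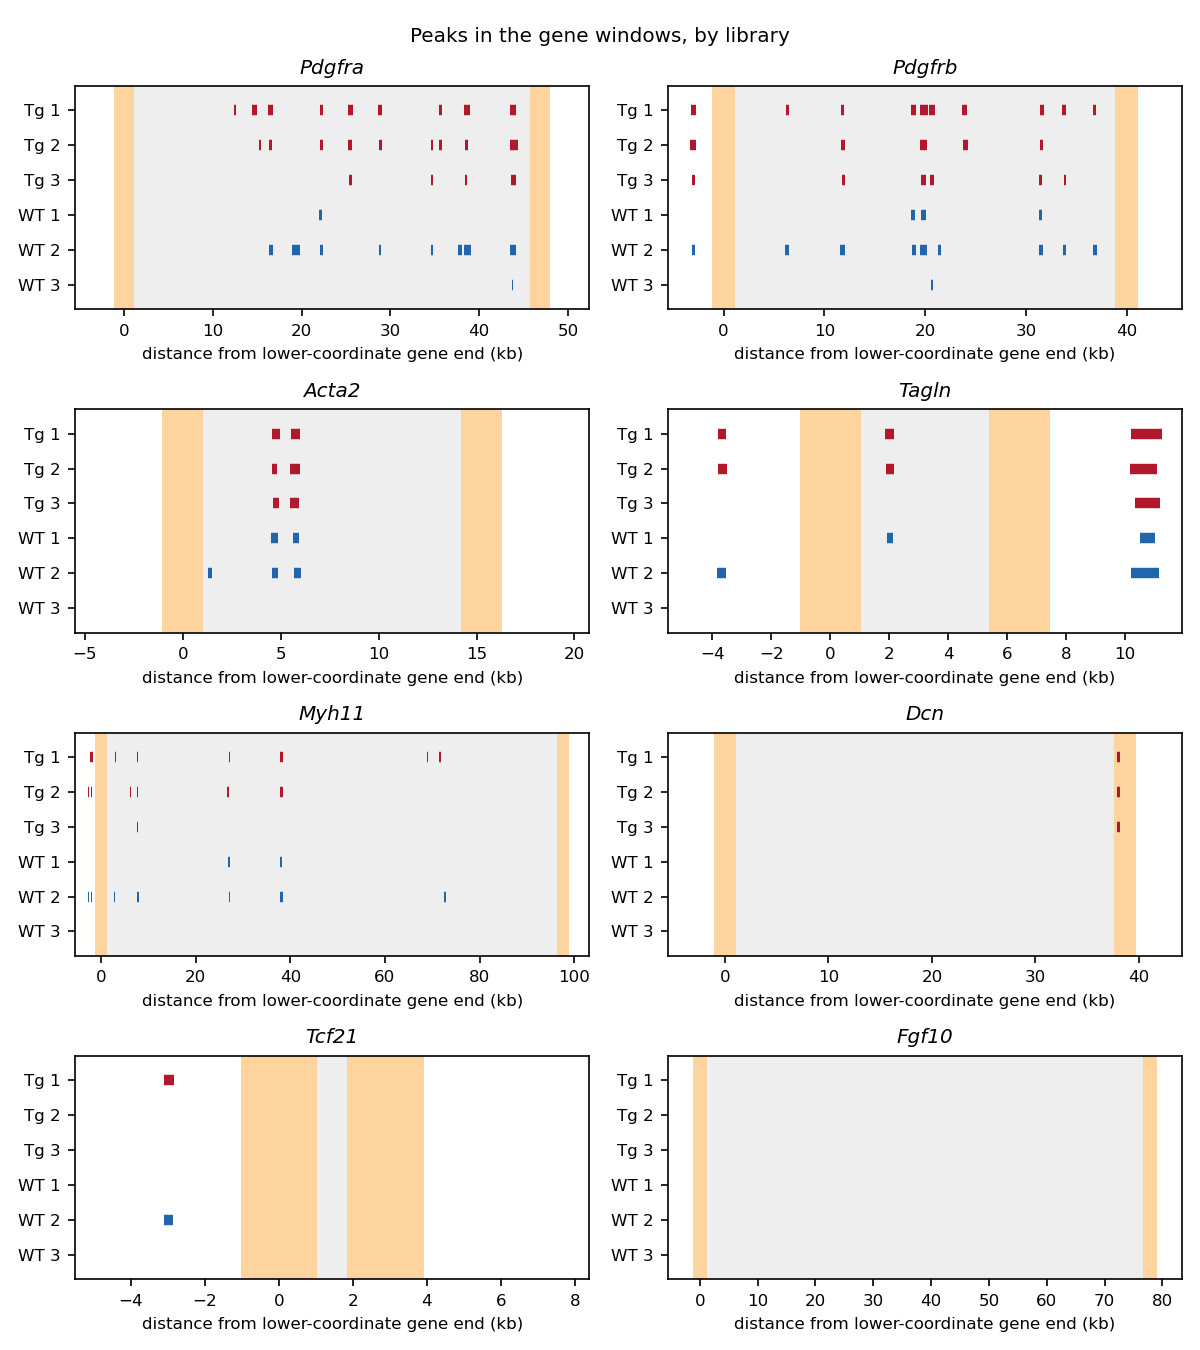
Position of every peak (bars) in the window of each gene, as distance in kb from the end of the gene with the lower coordinate (horizontal axis), in the 6 libraries (rows; Tg, transgenic, red; WT, wild type, blue). Grey marks the gene span and orange the gene ends of plus or minus 1000 bp, where only Dcn has peaks.

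Pdgfra, the receptor of fibroblasts and their progenitors, spans 75151322 to 75198206 of chromosome 5 and held 9, 9 and 4 peaks in transgenic replicates 1, 2 and 3 and 1, 8 and 1 in wild-type replicates 1, 2 and 3, all in the gene body. Wild-type replicate 2 lay within the transgenic range and the other wild-type lists below it. The covered share of the window was 5.39 ± 2.66% in transgenic and 2.75 ± 3.93% in wild-type lungs (SD, n = 3 each; two-sided exact permutation p = 0.30). Its most widely shared region, from 75194795 to 75195650, lay toward the upper end and scored 328, 210 and 164 in transgenic replicates 1, 2 and 3 and 158 and 71.5 in wild-type replicates 2 and 3. Wild-type replicate 1 had no peak there.

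A second Pdgfra region, from 75176584 to 75177137, had a peak in all 3 transgenic lists, with scores of 90.1, 90.5 and 52.6, and in no wild-type list. The third of these scores is close to the lowest score of 50. The peaks of all 3 transgenic lists contained the whole 74-base hairpin of the microRNA gene Mir7025, which lies inside Pdgfra at 75176831 to 75176904 on the plus strand. The hairpin is shown because it is the stretch of that region whose sequence is held in the RefSeq table (GRCm38.p6), with its 2 CG dinucleotides in capitals. The mature arms follow with the seed, bases 2 to 8, in capitals.
Mir7025 hairpin: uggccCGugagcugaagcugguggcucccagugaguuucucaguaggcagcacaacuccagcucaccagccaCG
mmu-miR-7025-5p: cGUGAGCUgaagcugguggcuccc
mmu-miR-7025-3p: cAGCACAAcuccagcucaccag
The seeds of both arms differ, and 1 of the 2 CG dinucleotides falls in the 5p arm. That CG starts at the first base of the arm, so that its G is the first base of the seed.

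Pdgfrb, the receptor of pericytes and other mural cells, spans 61045127 to 61085067 of chromosome 18. It held 10, 5 and 6 peaks in transgenic replicates 1, 2 and 3 and 3, 9 and 1 peaks in wild-type replicates 1, 2 and 3. The groups overlapped through wild-type replicate 2. The covered share was 6.18 ± 2.60% and 3.43 ± 3.75% of the window (SD, n = 3 each; exact permutation p = 0.40). Of 11 merged regions, 10 lay in the gene body and 1 in the flank below the gene, where it overlapped the neighbouring gene Gm52351. Regions at 61064594 to 61065367 and 61076349 to 61076851 were each found in 5 lists. The first scored 288, 117 and 91.7 in transgenic replicates 1, 2 and 3 and 52.2 and 146 in wild-type replicates 1 and 2, so that the score of wild-type replicate 2 lay within the transgenic range.

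Acta2, the smooth muscle alpha-actin gene and a marker of myofibroblasts, spans 34240336 to 34255585 of chromosome 19. It had 2 peaks in each transgenic list and 2, 3 and 0 peaks in wild-type replicates 1, 2 and 3. Both shared regions lay in the gene body, at 34244813 to 34245275 and 34245815 to 34246391, and each was found in 5 lists. The second scored 165, 130 and 66.2 in transgenic replicates 1, 2 and 3 and 69.1 and 111 in wild-type replicates 1 and 2. Of the 6 libraries, wild-type replicate 3 alone lacked these regions, and the covered share of 3.05 ± 0.178% in transgenic lungs fell within the range of 0 to 3.47% in wild-type lungs (exact permutation p = 0.50).

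Tagln, which encodes the actin-binding protein transgelin (SM22), spans 45929628 to 45936058 of chromosome 9 and had the highest covered share of window of the 8 genes. It was 10.02%, 9.20% and 4.98% in transgenic replicates 1, 2 and 3 and 4.41%, 7.75% and 0% in wild-type replicates 1, 2 and 3. Wild-type replicate 2 again lay inside the transgenic range (exact permutation p = 0.20). Most of this sequence lay outside Tagln, in a region from 45939793 to 45940881 inside the neighbouring gene Sidt2, a lysosomal transmembrane protein gene. That region scored 447, 219 and 116 in transgenic replicates 1, 2 and 3 and 70.9 and 205 in wild-type replicates 1 and 2. The region within Tagln, from 45931502 to 45931801, also lay in the overlapping gene Pcsk7, a proprotein convertase gene, and was found in transgenic replicates 1 and 2 and wild-type replicate 1. All 3 regions of this window overlapped another gene, so none can be assigned to Tagln alone.

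Myh11, the smooth muscle myosin heavy chain gene, is the longest of the 8, from 14194527 to 14292188 of chromosome 16. It held 7, 6 and 1 peaks in transgenic replicates 1, 2 and 3 and 2, 7 and 0 peaks in wild-type replicates 1, 2 and 3, and the groups overlapped. The strongest region lay in the gene body from 14232281 to 14232922 and scored 227 and 215 in transgenic replicates 1 and 2 and 65.0 and 210 in wild-type replicates 1 and 2. In the flank below the gene 2 regions overlapped the neighbour Nde1, a gene of the centrosome and mitotic spindle. The covered share was 1.58 ± 1.22% and 0.904 ± 1.09% (SD, n = 3 each; exact permutation p = 0.60).

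Dcn spans 97479500 to 97518163 of chromosome 10, with no other RefSeq gene in its window. Its only region covered positions 97517370 to 97517684, a width of 315 bp, and ended 479 bp inside the upper end of the gene. The peaks scored 181, 168 and 82.2 in transgenic replicates 1, 2 and 3, and no wild-type list had a peak in the window. They lay at or above 64.5%, 72.5% and 42.5% of the scores of their own lists. In base pairs, 299, 278 and 269 bp were covered in the transgenic lists and 0 bp in each wild-type list, or 0.579 ± 0.0316% of the window in transgenic lungs (SD, n = 3). The groups did not overlap (two-sided exact permutation p = 0.10, the smallest that 3 against 3 can give). The table gives no strand for Dcn, so which end of the transcript this is was not read from it.

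Of all protein-coding genes, 136 (0.621%) had a peak at a gene end in all 3 transgenic lists and no wild-type list, and 1 (0.00457%) showed the opposite, so 1 of 8 members is a small count in a direction that most such genes share. Every transgenic window was covered more than every wild-type window in 1 of the 8 genes, Dcn, against 5.44% of protein-coding genes. The reverse was found in 0 of 8 genes against 0.0137%. Peak lists were longer on average in transgenic lungs, and the part of list length in the Dcn result was not tested. Wild-type replicate 2 covered 54.4 Mb with its peaks, close to the 54.2 Mb of transgenic replicate 2, and had no peak in Dcn. Wild-type replicates 1 and 3, also without a peak in Dcn, covered less, 26.4 and 6.89 Mb. Within 100 kb on either side of the window, the lists held 7, 7 and 5 peaks in transgenic replicates 1, 2 and 3 and 6, 7 and 1 peaks in wild-type replicates 1, 2 and 3. When the 30640 highest-scoring peaks were taken from each list, the lowest scores kept were 241, 173 and 110 in the transgenic lists, the Dcn peaks fell below them, and the call was lost. With only peaks scoring at least 96.3 or 100, or with gene ends of 500 bp, the gene-end peak of transgenic replicate 3 dropped out and those of replicates 1 and 2 were left. With gene ends of 2000 bp, peaks of Tagln, Myh11 and Acta2 also counted, among them peaks of wild-type replicates 1 and 2. The authors' deposited table, which lists regions up to an FDR of 0.0996, does not hold the Dcn region.

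**Figure D4:**
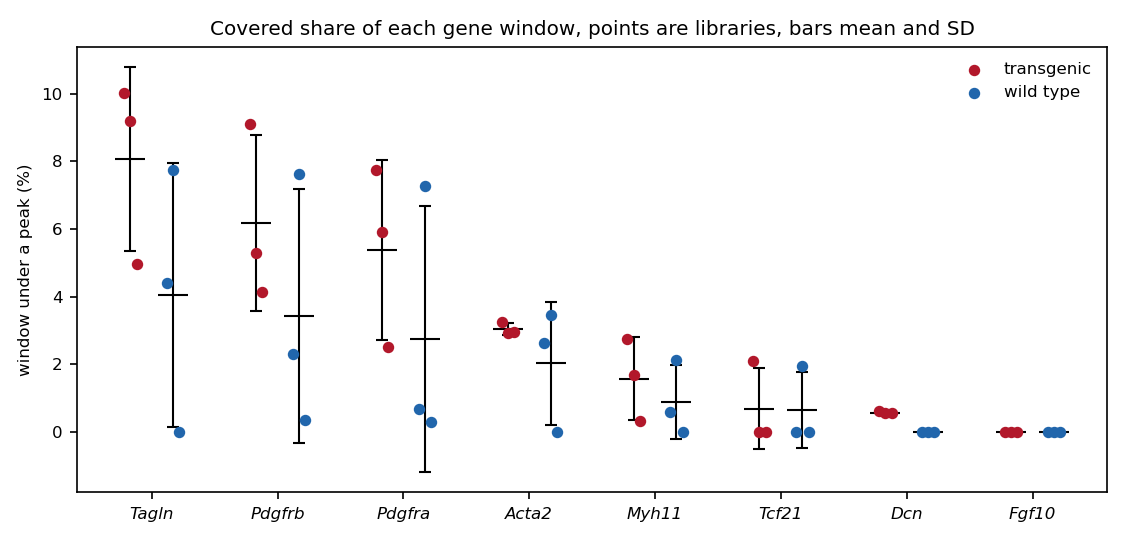
Percent of each gene window under a peak (vertical axis) for the 8 genes in order of their mean over all libraries (horizontal axis). Points are libraries and bars show mean and SD of 3 transgenic or 3 wild-type lungs. Only for Dcn do all transgenic points, at 0.553% to 0.614%, lie above all wild-type points, at 0%.

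Tcf21 spans 22817263 to 22820143 of chromosome 10 and is the shortest of the 8 genes. Its window held 1 peak in transgenic replicate 1 (score 129) and 1 in wild-type replicate 2 (score 62.8), both in a region at 22814160 to 22814432 in the flank below the gene. That region lies inside the long noncoding RNA gene Gm10824, which contains all of Tcf21. The other 4 libraries had no peak in this window, and the covered shares did not separate the genotypes (0.696 ± 1.21% and 0.647 ± 1.12%, SD, n = 3 each; exact permutation p = 1).

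Fgf10, from 118714699 to 118792573 of chromosome 13, had 0 peaks in all 6 libraries although its window of 87875 bp is the second longest. An empty window was found for 19.2% of protein-coding genes, and for 56 of the 3233 (1.73%) whose window is at least as long as that of Fgf10. In the 100 kb on either side the lists held 4, 4 and 3 peaks in transgenic replicates 1, 2 and 3 and 3, 4 and 1 peaks in wild-type replicates 1, 2 and 3. A missing peak shows that capture did not reach the caller's threshold, not that the DNA was unmethylated.

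No peak lay at a gene end in any library for 7 of the 8 genes, against 63.8% of protein-coding genes. For 4 of the 8 genes the RefSeq promoter table (GRCm38.p6) holds the sequence from 250 bases before to 50 after the transcription start. These promoters are shown because the capture protein binds methylated CG, and their CG dinucleotides, in capitals, are the sites within them that it could bind if methylated. Fgf10 (chr13:118714449-118714748, plus strand), Tcf21 (chr10:22820094-22820393, minus strand), Acta2 (chr19:34255324-34255623, minus strand) and Pdgfra (chr5:75152001-75152300, plus strand) read as follows.
Fgf10: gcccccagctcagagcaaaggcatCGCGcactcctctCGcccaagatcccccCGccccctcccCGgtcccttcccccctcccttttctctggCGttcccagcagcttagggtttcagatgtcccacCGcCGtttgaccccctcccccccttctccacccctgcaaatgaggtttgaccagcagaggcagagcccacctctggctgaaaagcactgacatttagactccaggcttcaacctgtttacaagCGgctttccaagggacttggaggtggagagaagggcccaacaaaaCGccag
Tcf21: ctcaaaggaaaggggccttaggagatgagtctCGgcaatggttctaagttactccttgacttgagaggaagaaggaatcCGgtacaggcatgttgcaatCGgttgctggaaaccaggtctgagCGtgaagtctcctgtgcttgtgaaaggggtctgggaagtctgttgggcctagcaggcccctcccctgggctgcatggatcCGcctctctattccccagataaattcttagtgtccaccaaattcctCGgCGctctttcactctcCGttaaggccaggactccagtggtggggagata
Acta2: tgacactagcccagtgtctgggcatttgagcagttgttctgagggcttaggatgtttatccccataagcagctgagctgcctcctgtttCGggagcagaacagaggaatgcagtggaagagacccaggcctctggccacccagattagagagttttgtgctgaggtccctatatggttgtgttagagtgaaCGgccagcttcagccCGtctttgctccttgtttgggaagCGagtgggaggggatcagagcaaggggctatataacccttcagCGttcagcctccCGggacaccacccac
Pdgfra: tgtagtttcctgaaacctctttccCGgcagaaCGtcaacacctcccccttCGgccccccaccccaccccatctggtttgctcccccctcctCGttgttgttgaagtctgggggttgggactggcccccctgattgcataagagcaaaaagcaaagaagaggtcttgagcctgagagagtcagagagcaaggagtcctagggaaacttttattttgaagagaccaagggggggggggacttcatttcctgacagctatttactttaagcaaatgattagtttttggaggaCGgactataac
The Fgf10 promoter holds 10 CG, that of Tcf21 holds 8, that of Acta2 holds 6 and that of Pdgfra holds 5, against a median of 7 over the 32851 promoters of the table. Observed CG were 0.394, 0.378, 0.270 and 0.256 of the number that the C and G content would give. None of the 4 had a peak over it in any library. The same held for 92.1% of all promoters and for 83.1% of the 6761 promoters with 5 to 10 CG, so promoters without peaks were the rule.

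The Acta2 promoter was the only one of the 4 with a CArG box. Promoters of the other contractile genes, Tagln and Myh11, were not among the 4, so they could not be searched. The box was searched as CC, a core of 6 bases and GG, which reads the same on both strands. With at most 1 G or C allowed in the A and T core, Acta2 had 2 matches, CCCTATATGG starting 84 bases and CCTTGTTTGG starting 34 bases before the transcription start. Such a match was found in 9.98% of all promoters, and a core of A and T alone, which none of the 4 had, in 1.63%. Neither match contains a CG.

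By covered share of window, averaged over the 6 libraries, the order was Tagln (6.06%), Pdgfrb (4.81%), Pdgfra (4.07%), Acta2 (2.54%), Myh11 (1.24%), Tcf21 (0.672%), Dcn (0.290%) and Fgf10 (0%). The measure is per length, but the CG content of the windows was not measured, and the fixed flanks weigh more in short genes. Tagln lay above Pdgfrb in 5 of 6 libraries, by 1.26 ± 1.54 points (SD over libraries), and Pdgfrb above Pdgfra in 5 of 6, by 0.737 ± 0.935 points, both within the spread. Acta2 lay above Myh11 in 5 libraries, with 1 tie, by 1.30 ± 0.972 points, the only neighbours in this order whose mean difference exceeded its SD. Without the flanks the order began with Pdgfrb (5.25% of the span), Pdgfra (4.94%) and Acta2 (4.21%), followed by Tagln with 2.07%, and Tcf21 and Fgf10 were at 0%.

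Near the 8 genes, the authors' deposited table had no differential region, against 187 of 21887 protein-coding windows (0.854%), and the authors' gene annotation assigned none of its 497 entries to a member. The closest region in the authors' deposited table lay 263543 bp from Pdgfra and was higher in transgenic mice (log2 fold 0.63, FDR 0.00565). Next came a region 381575 bp from Myh11 in the authors' deposited table, also higher (log2 fold 1.57, FDR 0.0553). Tagln was farthest, with 12887009 bp to the nearest region of the authors' deposited table.

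Gene-end peaks were also counted for further genes of the same cells and pathways. A gene-end peak in at least 1 list was found for 11 of 24 further fibroblast genes, 6 of 18 further smooth muscle genes, 5 of 11 pericyte genes, 10 of 19 genes of PDGF and FGF signalling and 6 of 27 mesenchymal regulators, against 36.2% of protein-coding genes. The shares of these lists lay on both sides of that background, from 22.2% for mesenchymal regulators to 52.6% for PDGF and FGF signalling. The difference between these lists and the 8 genes was not tested. Among fibroblast genes, Inmt, a methyltransferase gene of alveolar fibroblasts, had a gene-end peak in all 6 lists and Fbln1, a matrix fibulin gene, in 5. Among smooth muscle genes, the tropomyosin gene Tpm1 and the desmin gene Des had one in 4 lists each, in every transgenic list and wild-type replicate 2.

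A gene-end peak in every transgenic and no wild-type list, as at Dcn, was found for 2 of 11 pericyte genes. The background was 0.621% of protein-coding genes. Cspg4, the NG2 proteoglycan gene, scored 393, 185 and 74.3 at a gene end in transgenic replicates 1, 2 and 3, and Higd1b scored 84.6, 61.6 and 69.5, with no gene-end peak in any wild-type list. The Cspg4 score of transgenic replicate 3 and all Higd1b scores lay below 96.3 and below the lowest scores kept with equal list lengths. Both genes were chosen after their values were seen, and their whole windows overlapped between genotypes, since wild-type replicate 2 covered 12.9% of the Cspg4 window against 8.35% in transgenic replicate 3. The other pericyte genes with the most lists were the potassium channel gene Kcnj8 (5 lists) and Ndufa4l2 (4 lists). No gene of the other lists had a gene-end peak in all transgenic lists and no wild-type list.

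Of the ligands, receptors and feedback inhibitors around Pdgfra, Pdgfrb and Fgf10, the window was covered more in every transgenic than in every wild-type lung for 5 of 19, against 5.44% of protein-coding genes. These were the ligand genes Pdgfc, Fgf7 and Fgf9 and the inhibitor genes Spry2 and Spry4, named after their values were seen, and they were not singled out by any test. Spry4 windows were covered to 7.94%, 6.86% and 3.39% in transgenic replicates 1, 2 and 3 and to 2.75%, 2.92% and 0% in wild-type replicates 1, 2 and 3. Fgf7, the other mesenchymal ligand of the epithelium, reached 0.815%, 0.603% and 0.818% against 0.364%, 0.550% and 0%. Gene-end peaks were found in 5 lists for each of Etv5, Fgf18 and Fgfr4, and in no more than 4 for the others.

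A window covered more in every transgenic than in every wild-type lung was also found for Tgfb3, Tgfbr2 and Smad2 of the 27 mesenchymal regulators. It was found for the elastin gene Eln of the 24 fibroblast genes, Angpt1 of the 11 pericyte genes and 0 of the 18 smooth muscle genes. These genes were named because they met this coverage call, which 5.44% of protein-coding genes met. In the regulator list, Tgfb1 and Tbx4, a T-box factor of lung mesenchyme, had a gene-end peak in all 6 lists. For comparison, 2 of 11 alveolar type 2 genes, Sftpc and Lamp3, 0 of 11 endothelial and 0 of 12 immune genes met the coverage call. Gene-end peaks were found in 6 lists for Lamp3, Erg and Cd8a, in 5 for Vwf and Pecam1, in 4 for Lpcat1 and in 3 for Csf1r. In none of the 8 further lists did the authors' deposited table have a region in a gene window.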

How the data were processed

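Reads were aligned with Bowtie to mm10, and differential regions were made with DiffBind and edgeR, per the submitters' processing notes (no versions stated). Each library has a peak list of its own, with peak names of the MACS form. The score of each peak is the authors' own and starts at 50 in the deposited lists, and how it is defined was not given. The authors' deposited table gives read concentrations and folds on a log2 scale with p-values and FDR, with no statement of how libraries were scaled. Groups and replicate numbers came from the sample titles.

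Gene spans came from the RefSeq table of GRCm38.p6 (mm10), which gives no strand, so both gene ends were used. Exons and introns were not resolved, and no genome was used here. Starts are printed 1-based for peaks and regions and as deposited for the authors' table. A peak was counted where it overlapped a window by any base, and assigned to a gene end first, then the body, then a flank. For merged regions, overlapping or adjoining peaks (1 bp) of any list were joined.

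The members and lists were chosen with earlier results of these data known. Sums over the 8 genes are therefore given with their SD and no p. Tests of 1 gene were two-sided exact permutation tests over the 6 libraries (20 splits), which cannot go below p = 0.10. Their p-values were not adjusted for the number of genes. Named genes were the 8 members, the 2 genes per further list with a gene-end peak in the most lists (ties by the higher lowest score), list genes with a differential region, and the genes nearest in values to the member with the highest covered share, which are not reported here. Alternatives were 30640 top-scoring peaks per list, scores of at least 96.3 (the pooled median) or 100, other overlap rules, gene ends of 500 and 2000 bp, flanks of 2 and 10 kb, a replicate block, each library left out, Pdgfrb left out and, added after the data were seen, Dcn left out and autosomal genes only. Leaving out Pdgfrb was planned on the view that its window reaches Csf1r, which it does not. On simulated lists over 21887 genes, 200 of 200 planted genes were recovered, and 21 genes that were not planted also met the gene-end call. All simulated libraries shared the same background, with no background peaks in the planted windows. This checks the code only, not how the call performs on lists of unequal length. Analyses used Python 3.11.15, numpy 2.4.6 and pandas 2.3.3.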

Additional observations from a re-analysis of the deposited data

How the results depend on the processing

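No direction reversed in 129 recomputed values, but some could not have. Of these, 12 were counts of protein-coding genes, which have no direction. Both gene-end measures gave the same values, and the other overlap rules and the replicate block left the differences unchanged. Equal list lengths (30640 peaks each), or leaving out Dcn, brought both the gene-end peaks per library and the number of genes with one to a difference of 0, from 1 against 0. Scores of at least 96.3 or 100, and gene ends of 500 bp, brought both to 0.667 against 0, since 1 transgenic list lost the Dcn peak, and gene ends of 2000 bp gave 2.33 against 1. With equal list lengths Pdgfra, in place of Dcn, was the gene whose window was covered more in every transgenic list, a call that 4.67% of protein-coding genes then met. Wild-type replicate 3 kept a peak in the Pdgfra window. The highest Pdgfra score of wild-type replicate 2, 158, fell just below the lowest score kept in that list, 164. The excess of peaks in the 8 windows in transgenic lists ranged from 4.67 to 18.7 when 1 library was left out and from 1.33 to 13.0 under the other settings, with the lowest value for equal list lengths. The difference in percent of windows covered ranged from 0.348 to 2.06 points, and that of the ratio to protein-coding genes from 0.0517 to 0.497. The 1190 protein-coding genes covered more in every transgenic list numbered 1192 to 10281 when 1 library was left out, with 6220 without transgenic replicate 3 and 10281 without wild-type replicate 2. Fewer libraries make this call easier by construction.

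Beyond the shared number, the sample titles do not pair the libraries. Deviations of gene coverage from the group means correlated at -0.34, 0.11 and 0.67 for same-numbered libraries 1, 2 and 3. Across different numbers the correlation ranged from -0.69 to 0.61, so these values do not decide whether the numbers mark pairs. A replicate block leaves the differences (10.7 peaks, 1 gene-end peak) as they are by construction and bears only on p. The exact sign-flip permutation p for the gene-end peaks of Dcn was then 0.25, the smallest that 3 pairs can give. Depth per library is unknown, and weak peaks near the score of 50 limit what the shorter lists could show.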
